A study of Mus musculus with 10 samples.

Results

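Non-cycling lymphatic endothelial cells (LECs) of mouse ear skin were compared between mice that express an oncogenic form of PI3K in their endothelium and mice that do not. LECs were wells in which the summed counts per 1000000 reads (CPM) of the lymphatic genes *Prox1*, *Flt4* and *Mmrn1* reached at least 300 CPM and exceeded the sum of the blood endothelial genes *Flt1*, *Emcn* and *Podxl*. Wells in which Mki67, Top2a, Ccnb1, Ccnb2, Cdk1, Cdc20 and Prc1 together reached at least 500 CPM were left out as cycling. Of 3456 wells with counts, 3248 passed the limits on reads, genes and mitochondrial reads, 1641 of these were LECs, and 1477 were non-cycling LECs. They numbered 154, 159, 330, 165 and 319 in mutants 1–5 and 179 and 171 in controls 1 and 2. The 13 genes that chose the cells are not results.

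The study asked how LECs and blood endothelial cells (BECs) answer to activated PI3K. All mice were 5 weeks old. The 5 mutant mice carried *Cdh5*-CreERT2, a tamoxifen-inducible Cre active in the whole endothelium, with an inducible allele of Pik3caH1047R, and had 4-OHT, the active metabolite of tamoxifen, applied to the ear skin at 3 weeks. The study states that all its mice were on a C57BL/6J background. Control 2 was a littermate without Cre that received the same 4-OHT. Control 1 was a separately bred wild-type C57BL/6J animal that was left untreated. The share of LECs in which Cre had acted is not known from the counts, since they hold no entry for the transgene. Endothelial cells had been sorted for CD31 and Podoplanin, with immune cells, erythrocytes and dead cells excluded, into 1 plate of 384 wells per mouse, or 2 for mutants 3 and 5. Control 3 of the study was not analysed here.

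The H1047R change makes the p110α subunit of PI3K more active, so that more PIP3 is formed at the membrane and the kinases AKT and mTOR are driven. Downstream of AKT lie glucose use, protein and lipid synthesis, entry into the cell cycle and the export of FOXO transcription factors from the nucleus. In lymphatic endothelium the pathway is normally engaged by VEGF-C through VEGFR3 and neuropilin-2, and activating mutations of the human gene are found in lymphatic malformations.

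Sums per mouse held 46629745–165340688 reads. The 5 LEC markers that did not choose the cells (*Pdpn*, *Reln*, *Ccl21a*, *Lyve1* and *Tbx1*) summed to 3517–4421 CPM in the mutants and to 5207 and 4884 CPM in the controls, against 50.0–401 CPM in BECs of the same mice. Markers of capillary LECs summed to 5040.4–6451 CPM in the mutants and 8422 and 7325 CPM in the controls, of valve LECs to 1105–2073 and to 1219 and 1210.0 CPM, and of collecting vessels to 3209–4302 and to 3003 and 3283 CPM. The 5 BEC markers that did not choose the cells (Sox17, *Plvap*, *Cd34*, Rgcc and *Esm1*) summed to 904–1214 CPM in mutant LECs and to 876 and 756 CPM in control LECs, against 4365–6448 CPM in BECs. Only *Cd34* had a positive log2 fold change in LECs (3.01), while Sox17 had −1.37, *Plvap* −0.20, Rgcc −1.85 and *Esm1* −3.38. Wells with at least 300 CPM of the markers of other skin cells made up 1.95–6.58% of mutant LECs but 20.1% in control 1 and 7.02% in control 2. After removal of cycling cells, 7.27–20.7% of mutant LECs still had 100–500 CPM of the cycling genes, against 1.12 and 4.68% in the controls. The median share of spike-in reads was 0.215–0.368% in the mutants and 0.641 and 0.693% in the controls. Plate numbers fall in 2 series, one with mutants 1–4 and the other with mutant 5 and both controls. Control 1 and mutants 3–5 are female and the others male by their reads. Counts of called genes after refits for other cell types' markers, cycling genes, plate series and sex are given at the end. The part of each difference in the results was not tested.

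Of 19280 genes tested in the per-mouse sums, 91 (0.472%) were higher and 47 (0.244%) lower in mutant LECs (edgeR quasi-likelihood, adjusted p under 0.05). All 138 had every mutant on the same side of both controls. This was so of 2267 genes above (11.8%) and 2097 below (10.9%) among all genes tested, called or not. The genes that rose included matrix proteins, integrins, a lymphatic growth factor co-receptor, the anticoagulant receptor thrombomodulin, cyclin D1 and a glycolytic enzyme. Those that fell included immediate-early transcription factors, the lipoprotein lipase carrier *Gpihbp1* and the protease inhibitor *Cst3*. DESeq2 called 1141 genes higher (5.92%) and 653 lower (3.39%), among them 137 of the 138. The counts rested on few mice: without control 1, 3 genes were higher and 0 lower by edgeR (3544 of 21465 at an unadjusted p under 0.05), without mutant 3 the counts were 6 and 2, without mutant 4 10 and 3, without mutant 2 14 and 4, and without mutant 1 43 and 12. With the plate series as a block 27 were higher and 2 lower, and in the controls' series alone 1 and 0 (1254 at an unadjusted p under 0.05). The set of called genes shifted too. Without mutant 5, 120 genes were called, 78 of them among the 138. Without control 2, which leaves a lone control, most of the 138 were no longer called, while other genes were. In sums over cells, fewer cells that make a transcript and less of it per cell cannot be told apart. In what follows, called means past this test, above and below mean that every mutant lay above or below both controls, and a gene that did not pass has its log2 fold change and adjusted p in parentheses. Counts above and below in each gene list are to be read beside the 11.8 and 10.9% of all genes tested. Counts called higher and lower are to be read beside 0.472 and 0.244%.

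**Figure D1:**
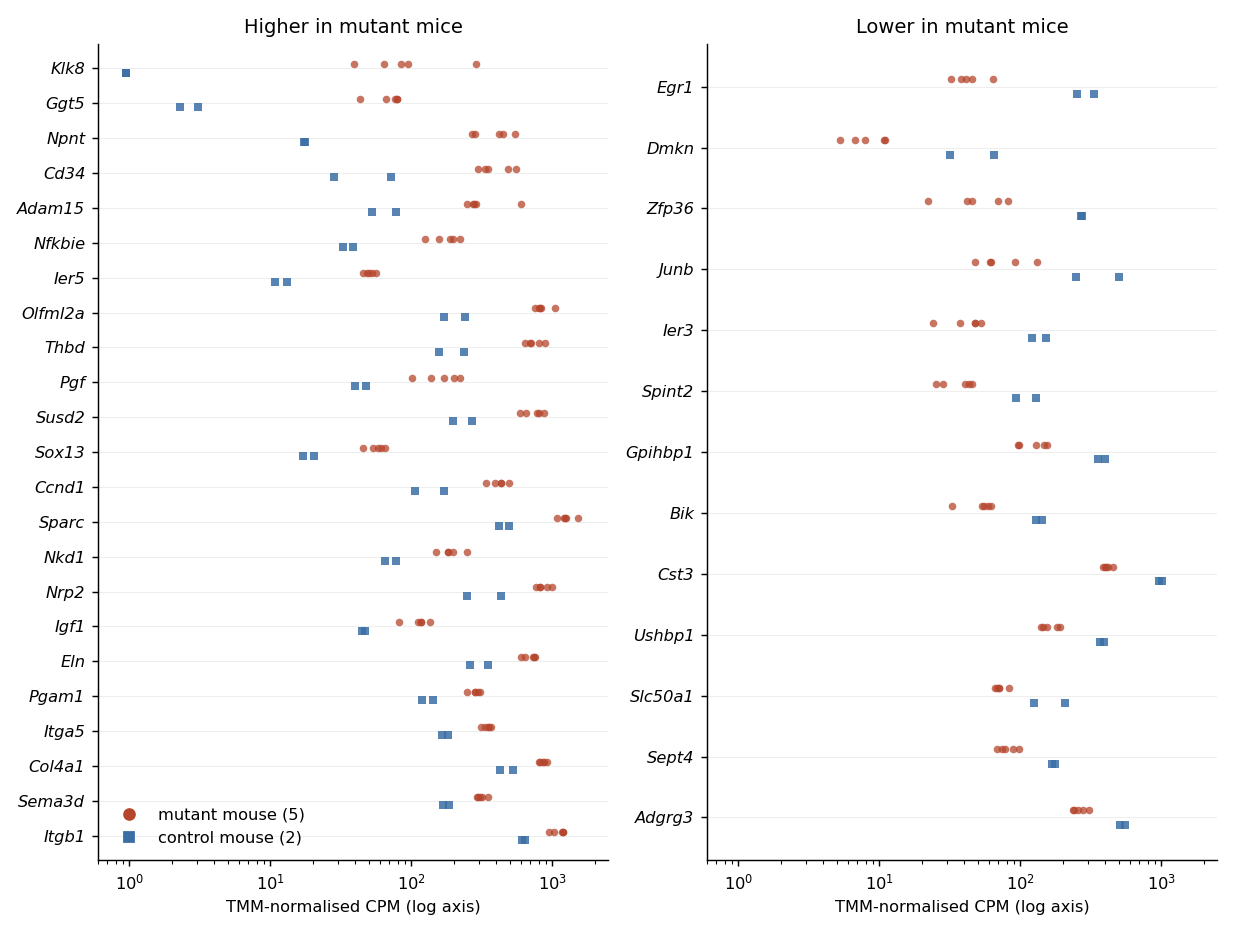
Level of named genes that passed the test in non-cycling LECs and had more than 3 reads in the controls, 1 point per mouse, in CPM on a log axis, with mutants and controls in different colours. *Npnt* stood at 270.1–546 CPM in the mutants against 17.6 and 17.2 in the controls and *Egr1* at 32.0–63.6 against 335 and 253, with no overlap in any gene shown.

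Several abundant genes for secreted matrix proteins rose. *Npnt* encodes nephronectin, a basement membrane ligand of integrin α8β1 (GRCm38 chromosome 3, 132881745–132950291). It stood at 285, 270.1, 422, 546 and 445 CPM in mutants 1–5 and at 17.6 and 17.2 CPM in controls 1 and 2 (log2 fold change 4.50, SE 0.36, adjusted p = 0.00435). Every mutant was far above both controls, which lay close together, and the gene passed in 21 of 24 alternative analyses. *Sparc*, a collagen-binding matricellular protein (chromosome 11, 55394500–55423183), stood at 1205, 1079.6, 1221, 1255 and 1519 CPM against 492 and 419 CPM (log2 fold change 1.46, SE 0.16, adjusted p = 0.0137). *Olfml2a*, a secreted olfactomedin-domain protein (chromosome 2, 38931978–38963753), stood at 817, 756, 809, 829 and 1051 CPM against 172 and 239.9 CPM (log2 fold change 2.05, SE 0.20, adjusted p = 0.00811). In both genes mutant 5 was the highest mouse and the controls were the lowest pair.

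*Eln*, the core of elastic fibres, and *Col4a1*, a chain of the collagen IV network under endothelium, rose less. *Eln* stood at 741, 727, 637, 600.1 and 756 CPM against 261 and 349 CPM (log2 fold change 1.18, SE 0.17, adjusted p = 0.0328). *Col4a1* stood at 880.1, 924, 812, 853 and 808 CPM against 424 and 526 CPM (log2 fold change 0.85, SE 0.13, adjusted p = 0.0379). The ranges of mutants and controls were apart in both genes, and *Col4a1* passed in 11 of 24 alternatives. In the list of basement membrane and pericellular matrix genes, 1 of 27 members was called by edgeR. In that list 12 members (44.4%) had every mutant above both controls and 2 (7.41%) every mutant below, beside 11.8 and 10.9% of all genes tested. The median log2 fold change was 0.50, beside −0.01 over all genes tested. DESeq2 called 12 members higher and 2 lower. The members next in order of p did not pass: the nidogen *Nid1*, which links laminin to collagen IV, stood at 470.4 ± 50.4 CPM (SD, n = 5) against 254 and 290.1 CPM (0.79, adjusted p = 0.0541), and the laminin chain *Lamc1* at 397 ± 48.5 against 214 and 263 CPM (0.74, adjusted p = 0.0831). *Reln*, a secreted glycoprotein of LECs, went the other way, at 547 ± 123 against 1035 and 852 CPM (−0.79, adjusted p = 0.143). The 25 collagens and processing genes had 1 member called and a median of 0.01 (0.33 without control 1 and −0.05 without control 2). In that list 3 members were above and 3 below (12% each), close to the shares of all genes tested.

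Both chains of a major matrix receptor rose as well. *Itga5* and *Itgb1* encode integrin α5β1, the fibronectin receptor. *Itga5* stood at 354, 311, 370.5, 336 and 351 CPM against 181 and 165 CPM (log2 fold change 0.99, SE 0.13, adjusted p = 0.0288; chromosome 15, 103344286–103366763), and *Itgb1* at 942, 1029, 1173, 1185 and 1182 CPM against 641 and 611 CPM (log2 fold change 0.82, SE 0.13, adjusted p = 0.0422; chromosome 8, 128685654–128733200). The lowest mutant was above the higher control in both chains. *Itga9*, whose product binds tenascin and takes part in lymphatic valve formation, was close to the limit at 337 ± 43.4 CPM (SD, n = 5) against 164 and 193 CPM (0.92, adjusted p = 0.0520). Of 24 integrin and focal adhesion genes, 2 were called higher and 0 lower, 10 had every mutant above and 0 every mutant below, and the median was 0.34. Of 28 actin and migration genes 0 were called by edgeR, 11 at an unadjusted p under 0.05 and 8 by DESeq2, with 11 above, 2 below and a median of 0.27. *Tagln2*, an actin-bundling protein, led that list at 1002 ± 137 against 549 and 566 CPM (0.85, adjusted p = 0.0517).

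Proteinases that cut matrix and membrane proteins were spread over higher values. *Adam15*, a membrane-bound disintegrin and metalloproteinase (chromosome 3, 89338542–89349996), stood at 247, 279.5, 287, 275 and 601 CPM against 78.3 and 52.3 CPM (log2 fold change 2.37, SE 0.41, adjusted p = 0.0479). Mutant 5 was far above the other mutants and all mutants were above the controls, and 20.6% of the exon bases of *Adam15* lie over those of another gene, so that its reads may be shared. Of the proteinases the study drew attention to, none passed: *Mmp14* stood at 599.8, 481, 638, 691 and 836 against 217 and 329 CPM (1.25, adjusted p = 0.0606), *Mmp2* at 492, 368, 602, 510.0 and 667 against 224 and 223 CPM (1.24, adjusted p = 0.0520), *Adam8* at 6.85, 14.7, 19.6, 19.3 and 28.6 against 0.129 and 3.29 CPM (3.38, adjusted p = 0.185) and *Adam17* at 95.4, 102, 108, 113 and 112 against 90.0 and 62.2 CPM (0.48, adjusted p = 0.239). *Mmp14*, *Mmp2*, *Adam8* and *Adam17* had every mutant above both controls. The study had compared another set of cells, its non-proliferative *Ptx3* clusters of mutants against *Ptx3* capillary LECs of controls. In LECs with at least 50 CPM of *Ptx3*, *Adam17* stood at 125–142 CPM in mutants against 51.2 and 62.98 CPM in controls. *Mmp14*, *Mmp2* and *Adam8* were also above both controls in every mutant there. The controls had only 12 and 46 such cells, and these differences were not tested. Among 21 tested proteinases and inhibitors, 1 was called, 11 were above in every mutant and 0 below, the median was 0.53 (1.02 without control 1 and 0.99 without control 2) and DESeq2 called 7 higher and 0 lower. *Cst3*, cystatin C, a secreted inhibitor of cysteine proteinases outside that list, fell: it stood at 386, 396, 416, 405 and 457 CPM against 1009.9 and 963 CPM (log2 fold change −1.26, SE 0.11, adjusted p = 0.00516; chromosome 2, 148871722–148875692) and passed in 19 of 24 alternatives.

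**Figure D2:**
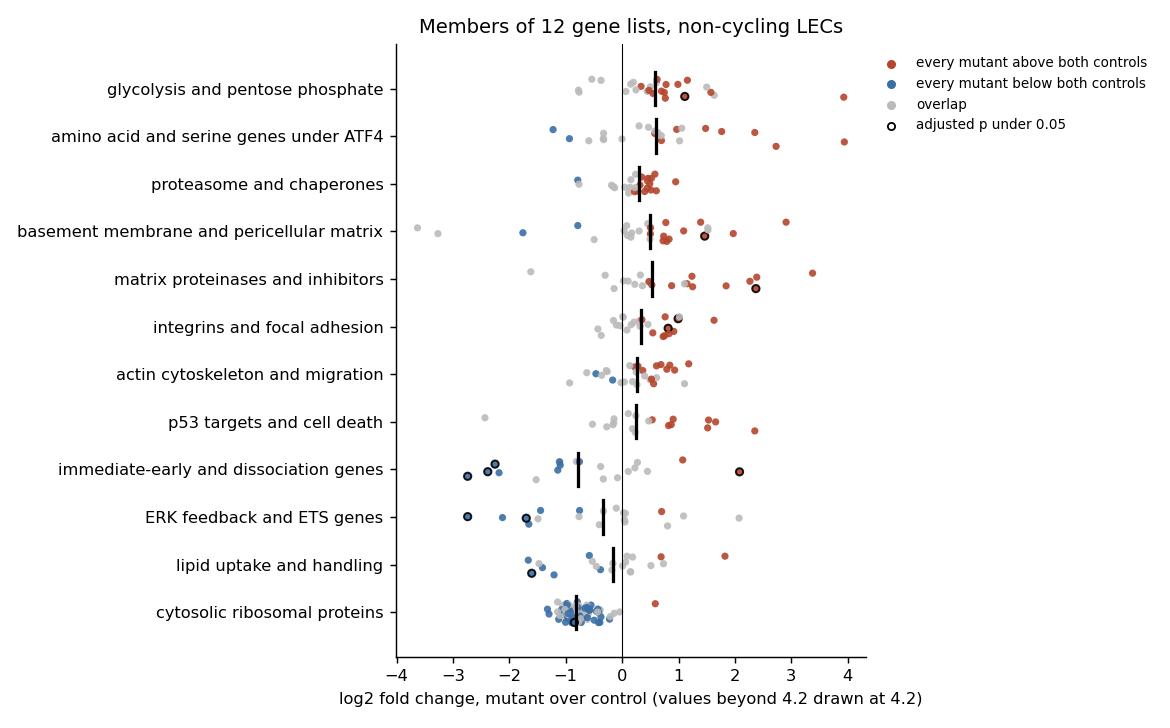
Log2 fold change (mutant over control) of every tested member of 12 gene lists in non-cycling LECs, 1 point per gene, coloured by whether every mutant lay above or below both controls or the groups overlapped, ringed where adjusted p was under 0.05, with a bar at the median. Glycolysis, matrix, proteinase and proteasome lists have medians above 0, with 13 of 26 glycolytic genes above both controls in every mutant, while immediate-early genes have a median of −0.78.

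Growth factor and guidance genes gave called rises on both the ligand and the receptor side. *Nrp2*, the co-receptor of VEGFR3 for VEGF-C and also a receptor of class 3 semaphorins (chromosome 1, 62703285–62818695), stood at 816, 821, 913, 1001 and 762 CPM in mutants against 249 and 436 CPM in controls (log2 fold change 1.33, SE 0.23, adjusted p = 0.0456). *Pgf*, placental growth factor, a ligand of VEGFR1 (chromosome 12, 85166635–85177790), stood at 102, 171, 200.1, 221 and 138 CPM against 39.8 and 48.1 CPM (log2 fold change 1.92, SE 0.32, adjusted p = 0.0439). *Sema3d*, a secreted semaphorin that signals through neuropilins, stood at 294, 306, 348, 318 and 296 CPM against 185 and 169 CPM (log2 fold change 0.82, SE 0.13, adjusted p = 0.0439). Mutants and controls did not overlap in any of these, with the smallest ratio of lowest mutant to higher control in *Sema3d*.

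*Igf1*, the growth factor that activates PI3K through the IGF1 receptor, stood at 135, 82.1, 117, 117 and 111 CPM against 47.2 and 44.6 CPM (log2 fold change 1.29, SE 0.22, adjusted p = 0.0445). Its list showed no shared rise: 1 of 12 members was called, 4 were below in every mutant and the median was −0.60, which turned to 0.22 without control 1. *Igf1* passed in only 5 of 24 alternatives. *Nkd1*, a feedback inhibitor that binds Dishevelled in Wnt signalling, stood at 181, 150.2, 182, 196 and 249.7 CPM against 65.4 and 77.3 CPM (log2 fold change 1.43, SE 0.22, adjusted p = 0.0393). In the Wnt list 2 of 26 were called higher, and the median was −0.49 (0.45 without control 1). In it 5 were above (19.2%) and 4 below (15.4%), beside 11.8 and 10.9% of all genes tested. Chosen after its value was seen, the receptor gene *Fgfr1* stood at 491, 534, 577, 462 and 622 CPM against 284 and 259 CPM (log2 fold change 0.99, SE 0.15, adjusted p = 0.0404).

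VEGF and angiopoietin genes as a list were split. Of 24 tested, 2 were called higher and 0 lower, around a median of −0.03 (0.42 without control 1 and 0.13 without control 2). Every mutant was above in 7 (29.2%) and below in 5 (20.8%), beside 11.8 and 10.9% of all genes tested. *Apln*, the ligand of the apelin receptor and a gene of endothelial tips, stood at 12.6, 7.09, 8.80, 15.2 and 8.87 CPM against 1.63 and 0.970 CPM (3.02, adjusted p = 0.0520). *Angpt2*, a context-dependent ligand of TIE2, stood at 140.2 ± 34.3 CPM (SD, n = 5) against 217 and 207 CPM (−0.60, adjusted p = 0.225). The lymphatic identity list also lacked a common direction, with 1 of 22 called (*Nrp2*), 3 above (13.6%) and 5 below (22.7%). Its median was −0.10 (0.01 without control 1 and −0.26 without control 2). *Nfatc1*, a transcription factor of lymphatic valves and growth, stood at 386 ± 43.4 against 471 and 730.2 CPM (−0.64, adjusted p = 0.135). The hyaluronan receptor *Lyve1* stood at 1166, 2023, 2164, 2125 and 2608 CPM against 2450.3 and 2076 CPM (−0.17, adjusted p = 0.783), and mutants and controls overlapped.

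At the vessel surface, thrombomodulin rose. *Thbd*, the receptor that turns thrombin to activation of protein C (chromosome 2, 148404466–148408188), stood at 710.4, 694, 805, 637 and 881 CPM against 235 and 158 CPM (log2 fold change 1.92, SE 0.21, adjusted p = 0.0137). The controls were well under every mutant, and the call held in 18 of 24 alternatives. Among 26 complement and coagulation genes it was the only one called by edgeR, with 7 higher and 1 lower by DESeq2. In that list 8 were above (30.8%) and 2 below (7.69%), beside 11.8 and 10.9% of all genes tested. The list median was 0.06 (0.33 without control 1 and 0.09 without control 2). *Plau*, urokinase, stood at 117 ± 52.8 CPM (SD, n = 5) against 5.80 and 28.1 CPM (2.79, adjusted p = 0.107). *Cd34*, a sialomucin of capillary endothelium (chromosome 1, 194938819–194961279), stood at 296, 335, 347, 483 and 554 CPM against 71.8 and 28.1 CPM (log2 fold change 3.01, SE 0.44, adjusted p = 0.0363). *Cd34* belongs to the BEC marker list, and of the 5 members that did not choose the cells it was the only one called, while 1 of the 5 was below both controls in every mutant. *Susd2*, a membrane protein with a sushi domain, stood at 595, 780.3, 873, 649 and 803 CPM against 199 and 271 CPM (log2 fold change 1.65, SE 0.21, adjusted p = 0.0247).

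Inflammatory genes gave 1 call. *Nfkbie*, the inhibitor IκBε that holds NF-κB in the cytoplasm (chromosome 17, 45555703–45563169), stood at 158, 199, 219.9, 187 and 126 CPM against 32.6 and 38.5 CPM (log2 fold change 2.32, SE 0.26, adjusted p = 0.0150). In its list of 17 NF-κB factors and feedback genes no other was called, 1 was above and 1 below, and the median was 0.32 (0.63 without control 1 and 0.09 without control 2). The monocyte chemokines *Ccl2* and *Ccl7* were higher in every mutant without passing: *Ccl2* stood at 27.6, 36.2, 64.1, 103 and 148 CPM against 11.1 and 4.10 CPM (3.32, adjusted p = 0.0993) and *Ccl7* at 7.07, 8.55, 23.4, 25.2 and 25 CPM against 1.88 and 5.26 CPM (2.32, adjusted p = 0.165). Both groups were apart in either gene, mutants 4 and 5 had the highest values, and *Ccl2* passed in 4 of 24 alternatives. The pentraxin *Ptx3* stood at 278, 279, 313, 393 and 278 CPM against 38.5 and 144 CPM (1.75, adjusted p = 0.112), and the adhesion molecule *L1cam* at 91.6, 123, 151, 139.9 and 198 CPM against 43.3 and 19.5 CPM (2.16, adjusted p = 0.0522). Of other genes named by the study, the immune checkpoint ligand *Cd276* stood at 54.6, 128, 110.4, 194 and 120.5 against 21.1 and 28.2 CPM (2.30, adjusted p = 0.0624), while *Ackr2* (1.05, adjusted p = 0.268), *Cd200* (−0.26, adjusted p = 0.597), *Mrc1* (−0.36, adjusted p = 0.631), *Itih5* (−0.10, adjusted p = 0.882) and *Lgals3* (−0.05, adjusted p = 0.971) had adjusted p of 0.268 or more. The study reported *Ccl2*, *Ccl7*, *L1cam*, *Ackr2* and *Lgals3* as higher in its *Ptx3* clusters, another set of cells. In LECs with at least 50 CPM of *Ptx3*, *Ccl2* stood at 38.4–161 CPM in mutants against 0.244 and 15.3 CPM in controls. There *L1cam* stood at 176–258 against 1.95 and 0.298 CPM and *Ackr2* at 514–1274 against 295 and 345 CPM. *Ccl7* and *Lgals3* overlapped. The controls had only 12 and 46 such cells, and this was not tested. Of 22 tested chemokines and cytokines edgeR called 0, with 5 at an unadjusted p under 0.05 and 3 higher and 1 lower by DESeq2. Interferon-stimulated genes (0 of 25, unadjusted 4, DESeq2 0 higher and 1 lower) had a median of 0.15 (0.72 without control 1 and −0.19 without control 2).

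Genes of growth and metabolism were measured next, since these lie downstream of AKT and mTOR. *Pgam1*, the glycolytic phosphoglycerate mutase (chromosome 19, 41911923–41918660), stood at 248, 298, 285, 283 and 307 CPM in mutants against 119.6 and 143 CPM in controls (log2 fold change 1.11, SE 0.15, adjusted p = 0.0292). Of 26 glycolysis and pentose phosphate genes 1 was called by edgeR and 10 by DESeq2, all higher, 13 were above both controls in every mutant and 0 below, and the median was 0.58. The share above both controls among all genes tested was 11.8%. *Pkm*, pyruvate kinase, stood at 458, 611, 532, 546 and 806 against 338 and 257 CPM (0.99, adjusted p = 0.0924) and *Ldha*, lactate dehydrogenase A, at 523, 602, 635, 535 and 842 against 342 and 389 CPM (0.78, adjusted p = 0.111). *Gapdh*, glyceraldehyde-3-phosphate dehydrogenase, stood at 341, 355, 315, 299 and 415 against 218 and 90.9 CPM (1.16, adjusted p = 0.123). These enzymes had non-overlapping groups but did not pass the test. The glucose transporter *Slc2a1* stood at 120.1, 127, 120.2, 70.9 and 151 against 79.5 and 87.4 CPM (0.50, adjusted p = 0.374).

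Other branches of metabolism differed in how far their members moved. Of 28 oxidative phosphorylation genes edgeR called 0 (4 at an unadjusted p under 0.05, 1 higher and 1 lower by DESeq2), and the median was −0.11 (−0.22 without control 1 and 0.14 without control 2). Of 22 amino acid and serine genes under the transcription factor ATF4, edgeR called 0 (9 unadjusted, 6 higher by DESeq2), 8 were above and 2 below in every mutant, and the median was 0.61. The mitochondrial folate enzyme *Mthfd2* stood at 13.7, 8.14, 15.6, 15.4 and 10.2 CPM against 2.40 and 1.4 CPM (2.73, adjusted p = 0.0520), and the serine synthesis enzyme *Psat1* at 62.3, 92.2, 63, 62.5 and 67.3 against 15.8 and 34.0 CPM (1.48, adjusted p = 0.0844). *Trib3*, a pseudokinase that binds AKT and also answers to ATF4, was below both controls in every mutant, at 105, 114, 55.6, 69.8 and 113 against 216 and 134 CPM (−0.93, adjusted p = 0.185). Proteasome and chaperone genes (0 of 26 by edgeR, 15 unadjusted, 6 by DESeq2) had 14 members above and 1 below at a median of 0.29. Sterol and fatty acid synthesis genes (0 of 27, 6 unadjusted, 2 higher and 1 lower by DESeq2) had a median of 0.32 (0.24 without control 1 and 0.73 without control 2). Of these 3 were above (11.1%) and 2 below (7.41%), not more than the 11.8 and 10.9% of all genes tested.

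No component of the pathway itself passed the test. Endogenous *Pik3ca* stood at 27.5, 25.1, 45.1, 26.0 and 24.0 CPM against 28.6 and 40.8 CPM (−0.23, adjusted p = 0.751), with overlapping groups. Of 34 PI3K, AKT and mTOR components edgeR called 0, with 7 at an unadjusted p under 0.05 and 2 higher by DESeq2, and the median was −0.28 (−0.12 without control 1 and −0.08 without control 2). *Pik3r1*, the regulatory subunit p85α, stood at 67.6, 63.5, 47.4, 62.7 and 40.9 against 29.4 and 18.2 CPM (1.24, adjusted p = 0.0993). *Pik3ip1*, an inhibitor of PI3K and a FOXO-responsive gene, stood at 42.9, 30.4, 19.9, 21.6 and 16.9 against 87.6 and 31.0 CPM (−1.17, adjusted p = 0.236), and its groups overlapped. FOXO-responsive genes, many of which need FOXO in the nucleus, had a median of −0.01 over 28 tested members, none called by edgeR (5 unadjusted, 1 higher and 1 lower by DESeq2), with 1 above and 4 below, and the median was 0.30 without control 1 and −0.26 without control 2. The insulin receptor *Insr*, which FOXO can induce, stood at 10.9 ± 2.99 CPM (SD, n = 5) against 24.2 and 17.8 CPM (−0.95, adjusted p = 0.249).

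*Ccnd1*, cyclin D1, which drives cells through G1 (chromosome 7, 144929931–144939925), rose in these LECs although cycling ones had been left out. It stood at 339, 389, 434, 497 and 431 CPM against 107 and 171 CPM (log2 fold change 1.59, SE 0.23, adjusted p = 0.0363). With the limit on the cycling genes tightened from 500 to 100 CPM its log2 fold change was 1.47 (adjusted p = 0.0449; range over the 24 alternatives 1.67e-09–0.714). Of its exon bases 23.4% lie over another gene. Among 21 G1 regulators 1 was called higher and 0 lower, with 7 above, 3 below and a median of 0.42 (0.48 without control 1 and 0.24 without control 2). The inhibitor *Cdkn1a* stood at 202, 178, 193, 244 and 432 against 80.9 and 77.4 CPM (1.66, adjusted p = 0.0808). In the p53 list, *Phlda3*, which competes with AKT for PIP3, stood at 200.4, 129.8, 158, 126 and 228 against 66.2 and 51.5 CPM (1.52, adjusted p = 0.0544), and 8 of 19 members were above in every mutant, 0 below, none called by edgeR (8 unadjusted) and 7 higher and 1 lower by DESeq2. DNA replication genes (0 of 29 by edgeR, 8 unadjusted, 5 by DESeq2) had a median of 0.32, which was 0.19 under the tighter limit. Cells with 100–500 CPM of cycling genes, 7.27–20.7% of LECs in mutants and 1.12 and 4.68% in controls, move with this group, and their part was not tested beyond that limit.

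A few genes were at or close to 0 in control LECs. *Lrrc26*, an auxiliary subunit of large-conductance potassium channels (chromosome 2, 25289915–25291180), stood at 47.4, 42.6, 42.2, 45.0 and 56.1 CPM in the mutants and had no read in either control, so it was at least 1754-fold higher against a floor of 3 reads over both controls. It passed in 22 of 24 alternatives. *Ccdc184* (chromosome 15, 98167158–98170134) stood at 45.6, 64.3, 51.2, 68.3 and 88.9 CPM and had 3 reads in all in the controls, a ratio of pooled CPM of 2595 (95% counting interval 888–12583). *Sapcd1* (chromosome 17, 35025959–35028016) stood at 11.6, 11.4, 15.9, 25.5 and 25.3 CPM, with 3 control reads and a ratio of 742 (254–3597), but 53.2% of its exon bases lie over other genes. These intervals cover counting error only. None of the 3 overlapped between mutants and controls.

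A pair of enzymes had low control levels that could be measured. *Ggt5*, a γ-glutamyltransferase that acts on glutathione conjugates such as leukotriene C4 (chromosome 10, 75589340–75617200), stood at 65.9, 43.2, 76.4, 79.8 and 78.9 CPM against 2.29 and 3.05 CPM (log2 fold change 4.69, SE 0.37, adjusted p = 0.00435) and passed in 18 of 24 alternatives. *Klk8*, the secreted serine proteinase neuropsin (chromosome 7, 43797577–43803826), stood at 39.1, 64.6, 84.3, 94.1 and 286 CPM against 0.942 and 0.954 CPM (log2 fold change 6.90, SE 1.00, adjusted p = 0.0363), with mutant 5 far above the other mutants, and 24.8% of its exon bases lie over another gene. *Sox13*, a SoxD transcription factor, stood at 61.4, 53.5, 58.4, 45.2 and 65.3 CPM against 20.3 and 17.1 CPM (log2 fold change 1.60, SE 0.23, adjusted p = 0.0363).

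Immediate-early genes are switched on within minutes by growth factors and stress, and also by the digestion of tissue, and 3 of them fell in the mutants. *Egr1*, a zinc-finger transcription factor, stood at 41.3, 37.7, 32.0, 45.3 and 63.6 CPM in mutants 1–5 and at 335 and 253 CPM in the controls (log2 fold change −2.74, SE 0.25, adjusted p = 0.00583). *Junb*, a subunit of AP-1 (chromosome 8, 84974484–84978718), stood at 60.6, 47.4, 62.3, 92.1 and 131 CPM against 501 and 249 CPM (log2 fold change −2.25, SE 0.39, adjusted p = 0.0459). *Zfp36*, tristetraprolin, which destabilises cytokine transcripts (chromosome 7, 28376784–28380253), stood at 45.3, 41.6, 22.3, 69.7 and 82.3 CPM against 271 and 273 CPM (log2 fold change −2.38, SE 0.40, adjusted p = 0.0440). In all 3 genes every mutant was below both controls. With the plate series as a block none of them passed, with adjusted p of 0.0654 for *Egr1*, 0.342 for *Junb* and 0.350 for *Zfp36*. Over the 24 alternatives the adjusted p ranged from 4.47e-20 to 0.525, from 1.38e-06 to 0.808 and from 8.62e-07 to 0.7102, and *Egr1* passed in 19, *Junb* in 11 and *Zfp36* in 8. *Ier5*, another immediate-early gene, went the other way, at 56.4, 50.1, 48.8, 45.4 and 52.3 CPM against 10.8 and 13.2 CPM (log2 fold change 2.08, SE 0.22, adjusted p = 0.0137). Of 20 tested list members 3 were called lower and 1 higher, 8 were below both controls in every mutant and 2 above, and the median was −0.78 (−0.52 without control 1). *Fos* stood at 127, 50.1, 90.5, 146 and 277 against 820.1 and 434 CPM (−2.18, adjusted p = 0.0957) and the small heat shock protein *Hspb1* at 76.9, 63.4, 65.5, 62.1 and 46.1 against 135 and 136 CPM (−1.11, adjusted p = 0.0510). The chaperone gene *Dnajb1* stood at 103, 155, 161, 160.0 and 179.8 against 71.1 and 73.2 CPM (1.07, adjusted p = 0.0698), higher in every mutant.

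Promoters of 2 of the genes that fell are shown, over the 250 bases before the start of the RefSeq entry, read 5′ to 3′ on the strand of the gene (RefSeq, GRCm38.p6), with motif matches in capitals. The *Junb* promoter (chr8:84978749-84978998, minus strand) holds the forkhead motif GTAAACA on its other strand, and the *Zfp36* promoter (chr7:28379229-28379478, minus strand) holds a CArG box, the motif of serum response factor, a motif added after values were seen.
Junb promoter: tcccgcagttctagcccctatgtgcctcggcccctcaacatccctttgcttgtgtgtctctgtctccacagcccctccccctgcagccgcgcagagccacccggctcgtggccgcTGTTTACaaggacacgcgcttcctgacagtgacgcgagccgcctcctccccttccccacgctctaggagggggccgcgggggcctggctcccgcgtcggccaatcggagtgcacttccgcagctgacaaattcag
Zfp36 promoter: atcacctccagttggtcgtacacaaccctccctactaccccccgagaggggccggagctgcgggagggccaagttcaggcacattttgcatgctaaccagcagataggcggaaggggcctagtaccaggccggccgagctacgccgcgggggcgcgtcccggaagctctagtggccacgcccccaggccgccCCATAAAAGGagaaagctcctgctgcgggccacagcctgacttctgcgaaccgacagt
Promoters were found for 62 of 91 genes called higher, 34 of 47 called lower and 12078 of 19270 tested genes. The forkhead motif, searched on both strands, was in 0, 5.88 and 3.24% of these promoters. The AP-1 motif TGACTCA was in 8.06, 8.82 and 4.79%, the cyclic AMP element TGACGTCA in 1.61, 5.88 and 3.24%, the E-box CACGTG in 12.9, 5.88 and 11%, the ATF4 motif TGATGNAA in 0, 11.8 and 2.91% and the CArG box in 3.23, 2.94 and 1.60%. A match describes letters in these windows and not a bound site.

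Among genes that answer to ERK, a kinase whose targets include immediate-early genes, 2 fell. *Ier3*, an early response gene that prolongs ERK activity, stood at 47.5, 52.6, 37.3, 24.2 and 47.8 CPM against 152 and 120.1 CPM (log2 fold change −1.70, SE 0.28, adjusted p = 0.0439). *Spry2*, a feedback inhibitor of receptor tyrosine kinases, stood at 5.80, 4.93, 5.46, 7.68 and 12 against 30.5 and 32.0 CPM (−2.12, adjusted p = 0.0520), and *Dusp6*, the ERK phosphatase, at 70.7, 60.9, 101, 102 and 82.5 against 144 and 138 CPM (−0.75, adjusted p = 0.144). All 3 had every mutant below both controls. Of 19 members 2 were called lower (*Egr1* and *Ier3*) and 0 higher, 6 were below and 1 above, and the median was −0.33. The clock genes, which run with the hour of collection, had 2 of 18 below and 0 above, none called by edgeR (3 unadjusted, 2 lower by DESeq2), and a median of −0.52 that was 0.16 without control 1 and −1.10 without control 2.

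Among the other genes that fell were ones of lipid transport, surface receptors and cell death. *Gpihbp1*, which carries lipoprotein lipase across capillary endothelium (chromosome 15, 75596628–75599481), stood at 97.7, 128, 147, 95.7 and 155 CPM against 358 and 399.8 CPM (log2 fold change −1.60, SE 0.21, adjusted p = 0.0288). In its list of 21 it was the only one called, 6 were below and 2 above, and the median was −0.16 (−0.03 without control 1 and −0.12 without control 2). *Apoe*, apolipoprotein E, stood at 147, 147, 121, 91.1 and 56.4 against 504 and 207 CPM (−1.66, adjusted p = 0.0980) and the fatty acid receptor *Cd36* at 46.5, 35.6, 15.6, 31.8 and 22.7 against 102 and 60.5 CPM (−1.41, adjusted p = 0.125). Both had their controls above every mutant. *Adgrg3*, an adhesion G protein-coupled receptor (chromosome 8, 95017692–95045250), stood at 241, 257, 308, 235 and 279.6 CPM against 513 and 551 CPM (log2 fold change −1.01, SE 0.14, adjusted p = 0.0292). *Slc50a1*, a sugar transporter of the SWEET family, stood at 70.8, 68.1, 70.7, 65.8 and 82.6 CPM against 207 and 125 CPM (log2 fold change −1.21, SE 0.20, adjusted p = 0.0439). *Bik*, a BH3-only promoter of apoptosis, stood at 61.6, 55.4, 53.8, 32.8 and 58.8 CPM against 143 and 129.8 CPM (log2 fold change −1.38, SE 0.23, adjusted p = 0.0456). Mutants and controls did not overlap in these 3 genes.

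*Ushbp1* stood at 139.8–191 CPM in mutants against 390.0 and 369 CPM (log2 fold change −1.22, SE 0.16, adjusted p = 0.0270) and *Sept4*, a septin, at 68.7–97.8 against 176 and 169 CPM (log2 fold change −1.08, SE 0.17, adjusted p = 0.0407). *Spint2*, an inhibitor of serine proteinases such as matriptase, stood at 40.6, 43.4, 45.2, 28.2 and 25.3 CPM against 129 and 93.7 CPM (log2 fold change −1.61, SE 0.27, adjusted p = 0.0439). Chosen after their values were seen, *Pink1*, a kinase of mitochondrial quality control, stood at 244–262 against 471 and 376 CPM (log2 fold change −0.75, SE 0.12, adjusted p = 0.0439), and *Dock6*, an exchange factor for RAC and CDC42, at 155–170.2 against 325 and 268 CPM (log2 fold change −0.86, SE 0.13, adjusted p = 0.0379).

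Genes of keratinised epidermis and cartilage were also among those called lower. The epidermal secreted protein *Dmkn* stood at 11.1, 10.9, 5.24, 7.88 and 6.77 CPM against 31.6 and 65.5 CPM (log2 fold change −2.54, SE 0.38, adjusted p = 0.0379). Without wells that carried other cell types' markers its adjusted p was 0.127. Of the 47 genes called lower, 31 were highest in control 1, and of the 24 with a mean level under 3 on the log2 CPM scale, 22 had every mutant under 0.5 CPM. Among these, chosen after their values were seen, the collagen IX gene *Col9a1* had 68.8% of its control 1 reads in 1 of 179 cells and the epidermal protease gene *Asprv1* 67.6%. Keratinocyte markers summed to 74.6–267 CPM in the mutants and to 226 and 384 CPM in the controls, fibroblast markers to 19.5–139 and to 469 and 215 CPM, mural cell markers to 40.7–62.9 and to 142 and 79.3 CPM, immune markers to 4.57–24.1 and to 36.5 and 7.68 CPM, and Schwann cell markers to 86.7–124 and to 199 and 74.2 CPM. Erythroid markers went the other way, at 4.67–22.9 CPM in the mutants and 1.18 and 3.11 CPM in the controls. Control 1 lay within the range of the mutants for keratinocyte markers and control 2 for immune markers, and control 2 was the lowest mouse for Schwann cell markers. A list of chondrocyte markers made after values were seen summed to 58.2–188 and to 365 and 148 CPM, with Matn1 at 0 in all mice. Nearly all of the mutant sums was *Comp*, at 57.4–187 CPM in the mutants and 243 and 127 CPM in the controls. The other 5 markers, *Acan*, *Col2a1*, *Col9a1*, *Col9a3* and *Snorc*, were below both controls in every mutant. The highest mutant value among them was 1.41 CPM, of *Col9a3*, which stood at 21.6 and 14.03 CPM in the controls. *Col2a1* stood at 0–0.725 CPM in the mutants and at 58.1 and 4.84 CPM in the controls.

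Cytosolic ribosomal proteins, a list added after values were seen, were lower in nearly all members: 80 of 81 had a log2 fold change below 0, the median was −0.82, 49 were below both controls in every mutant and 1 above. edgeR called 2 lower, and DESeq2 called 54 lower and 1 higher. *Rps9* stood at 437, 409, 427, 462 and 553 CPM against 746 and 899.7 CPM (log2 fold change −0.85, SE 0.14, adjusted p = 0.0456), and *Rpl13* at 264, 237, 251, 271 and 324 against 471 and 488 CPM (log2 fold change −0.83, SE 0.14, adjusted p = 0.0456). Other genes with few exon bases went the same way by less, among genes whose log2 CPM averaged 5 or more. There, 225 others with under 1000 exon bases had a median of −0.36. The median was −0.00 for 836 with 1000–2000 exon bases and 0.15 for 2170 with 2000–4000. In the controls' plate series alone these medians were −0.05, 0.06 and 0.15. The 22 ribosomal protein genes with 2000–4000 exon bases had a median of −0.77. Exon bases are given per gene and need not be the length of its transcript. With only the plate series of the controls, where mutant 5 is the only mutant, the median of all 81 was −0.55, and it was −1.11 without control 1 and −0.45 without control 2.

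Over all 42 lists, 951 genes were listed, 918 were tested and 23 were called, 17 higher and 6 lower. Of all 19280 genes tested, 91 (0.472%) were called higher and 47 (0.244%) lower. The lists were chosen with earlier results of these data known. The medians depended on single controls: 11 of the 42 turned in sign without control 1, 8 without control 2 and 7 with the plate series as a block. The largest shares of members above both controls in every mutant were 53.8% in the proteasome and chaperone list, 52.4% in the proteinase list and 50% in the glycolysis list, beside 11.8% of all genes tested. Among these lists, which leave out the ribosomal proteins (60.5% below), the largest shares below were 40% of immediate-early genes, 33.3% of the IGF and insulin axis and 31.6% of ERK genes, beside 10.9%. Cell junction genes had 3 of 26 above and 0 below at a median of −0.05 (0.20 without control 1 and 0.07 without control 2). Targets of YAP and TAZ, which answer to stretch and cell density, had 2 of 17 above and 2 below at 0.05 (0.05 without control 1 and 0.03 without control 2), and hypoxia-responsive genes had 2 of 19 above and 1 below at 0.32. BMP and TGF-β genes had 1 of 24 above and 5 below at −0.42 (−0.03 without control 1 and −0.45 without control 2, and −0.88 in the controls' plate series alone), where *Id2*, a direct BMP target, stood at 66.3, 40.8, 47.3, 62.4 and 29.5 against 107 and 179 CPM (−1.54, adjusted p = 0.0683).

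LECs rich in *Ptx3* took a larger share in mutant than in control mice, so the response was also measured among LECs under 50 CPM of *Ptx3*. These were 990 of the 1477 cells, and 29.9–45.5% of mutant LECs but 6.70 and 26.9% of control LECs lay at or above that level. It is a range of 1 gene and not a cell type, and 75 cells lay at 25–100 CPM. No gene was called by edgeR in these smaller sums, with 2114 of 18368 at an unadjusted p under 0.05. Of the 135 genes called in all non-cycling LECs that could be tested there, 134 had an unadjusted p under 0.05 and 135 the same sign, in cells that were part of the first test as well.

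**Figure D3:**
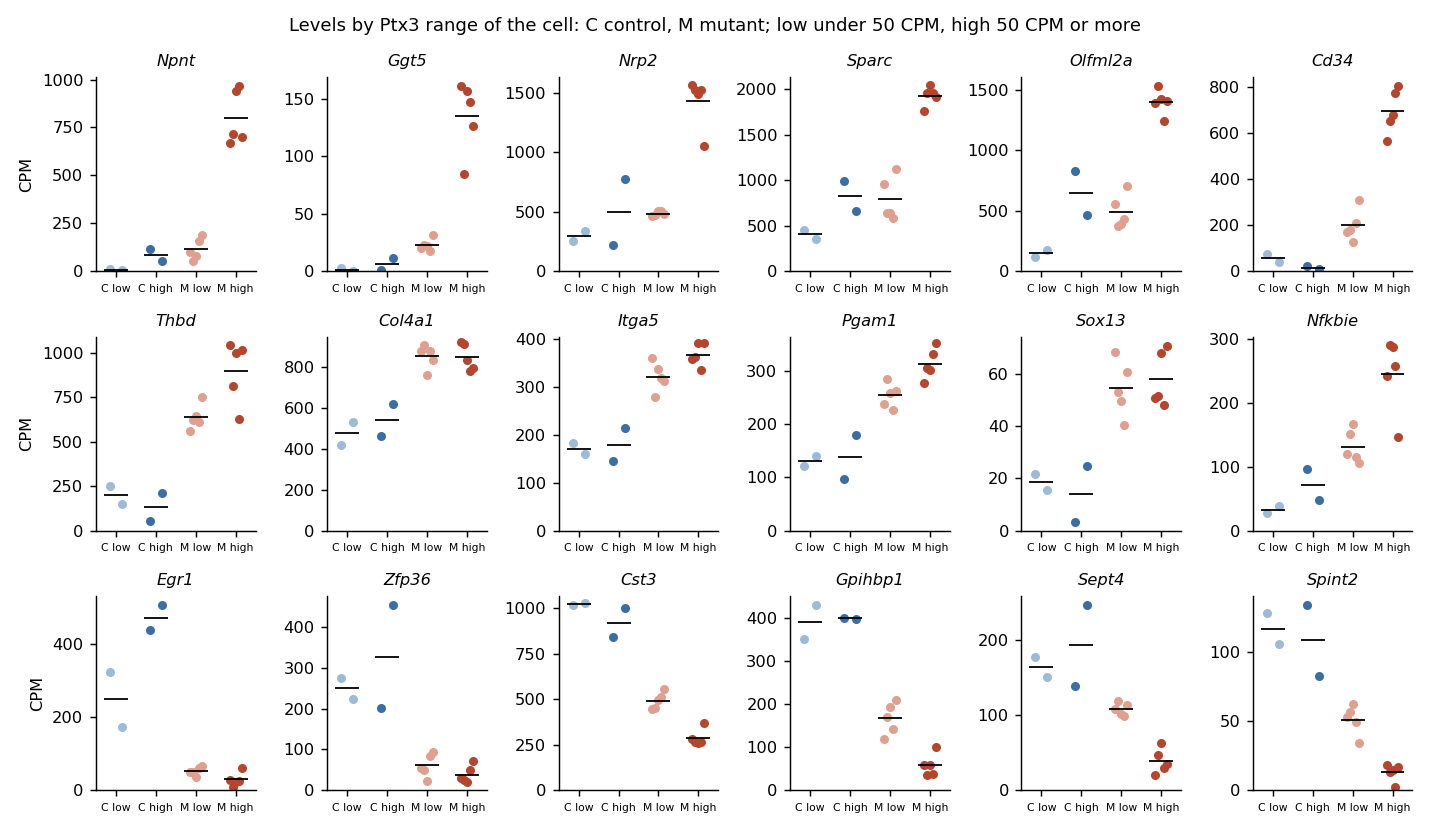
Level of 18 genes per mouse, in CPM on linear axes from 0, in control (C) and mutant (M) LECs under 50 CPM of *Ptx3* (low) and at or above it (high), with a line at the mean. *Npnt* stood at 9.49 and 4.75 CPM and 116 and 52.5 CPM in low and high cells of the controls and at 53.4–189 and 669.7–965 CPM in those of the mutants, whereas *Col4a1* has overlapping mutant ranges (759–907 and 781–922 CPM).

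The genes fell into different patterns across the range of *Ptx3*. *Ptx3*-high cells numbered 12 in control 1 and 46 in control 2, so the control values there rest on few cells. *Npnt* stood at 9.49 and 4.75 CPM in *Ptx3*-low control cells, 53.4–189 CPM in *Ptx3*-low mutant cells and 669.7–965 CPM in *Ptx3*-high mutant cells, against 116 and 52.5 CPM in *Ptx3*-high control cells. *Nrp2* stood at 249.9 and 337, 462–505 and 1051–1565 CPM, and *Thbd* at 248 and 149, 561–752 and 630.1–1042 CPM, with 219 and 777 CPM of *Nrp2* and 55.1 and 214 CPM of *Thbd* in *Ptx3*-high control cells. All 5 mutants had more *Npnt*, *Nrp2* and *Thbd* in their *Ptx3*-high than in their *Ptx3*-low cells, and the *Ptx3*-low mutant cells were above the *Ptx3*-low control cells as well. *Col4a1* stood at 419 and 532, 759–907 and 781–922 CPM and *Itga5* at 183 and 159.7, 279–360.4 and 335–393 CPM, higher in *Ptx3*-high cells in 3 and 4 of 5 mutants. *Pgf* stood at 30.4 and 40.7, 34.1–85.3 and 167–425 CPM and *Igf1* at 24.8 and 48.1, 47.8–104 and 147–205 CPM, so that their *Ptx3*-low mutant cells overlapped with the *Ptx3*-low control cells. *Ptx3*-high control cells had 153 and 76.5 CPM of *Pgf* and 319 and 44.8 CPM of *Igf1*, so that control 1 lay above and control 2 below the *Ptx3*-high cells of every mutant in *Igf1*. *Egr1* stood at 324 and 174, 35.7–66.6 and 9.55–61.3 CPM, *Cst3* at 1019 and 1026, 445–555 and 261–366 CPM and *Gpihbp1* at 353 and 432, 119.7–211 and 34.2–101 CPM. These 3 were below the *Ptx3*-low control cells already in *Ptx3*-low mutant cells and lower again in *Ptx3*-high cells of all 5 mutants. In *Ptx3*-high control cells *Egr1* stood higher, at 439.9 and 508 CPM, *Cst3* lower, at 841 and 997 CPM, and *Gpihbp1* at 401 and 399 CPM.

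The share of cells with a read was compared after thinning every LEC to 50000 reads. *Npnt* was seen in 37.1–74.6% of mutant LECs and 11.7 and 8.19% of control LECs (61.6–98.4% and 29.1 and 21.1% before thinning), *Lrrc26* in 12.6–27.6% and 0 and 0% (17–50.2% and 0 and 0%) and *Thbd* in 75.5–94.7% and 67.0 and 50.9% (91.2–100% and 97.8 and 78.9%). *Egr1* was seen in 11.3–35.1% and 78.8 and 58.5% (25.8–77.4% and 100 and 92.4%), *Zfp36* in 15.2–36.7% and 79.9 and 67.8% (37.1–81.5% and 100 and 95.9%) and *Gpihbp1* in 45.3–76.5% and 92.7 and 79.5% (69.8–99.7% and 99.4 and 100%). The thinned shares of mutants and controls did not overlap for *Npnt*, *Lrrc26*, *Thbd*, *Egr1*, *Zfp36* or *Gpihbp1*. Each had an exact two-sided permutation p of 0.0952, the smallest that 5 against 2 mice allow. These genes had been called from the same reads, so their shares are a description and not a second test. Shares of other called genes overlapped, among them *Adam15*, *Cd34*, *Junb* (23.9–52.7% and 84.9 and 50.9%) and *Sox13*. No *Lrrc26* read in 179 and 171 control cells allows shares of up to 1.68% and 1.75%. In BECs the share was 9.21–56.8% for *Npnt* and 0–5.17% for *Lrrc26*.

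The same mice gave 1420 non-cycling BECs, in which 337 of 19174 genes (1.76%) were called. The difference between the LEC and the BEC response was tested itself and was called for 27 of 21475 genes (0.126%), 4 larger and 23 smaller in LECs. Of the named genes 5 were among them. *Thbd* stood at 337–449 CPM in mutant BECs and 449 and 495 CPM in control BECs (log2 fold change −0.28, SE 0.15, adjusted p = 0.355), and its LEC response minus its BEC response was 2.19, SE 0.28, adjusted p = 0.0424 on the log2 scale. *Ggt5* stood at 0.165–3.04 and 19.6 and 7.17 CPM in BECs, a difference of 8.30, SE 0.97, adjusted p = 0.0344. *Klk8* stood at 15.9–38.3 and 37.2 and 24.9 CPM, a difference of 7.07, SE 0.55, adjusted p = 0.0137, and *Sox13* at 67.8–134 and 194 and 178 CPM, a difference of 2.53, SE 0.24, adjusted p = 0.0137. These 4 rose in LECs and did not pass in BECs. *Spint2* stood at 354–486 and 244 and 178 CPM in BECs, where it rose (log2 fold change 0.95, SE 0.19, adjusted p = 0.0475) while it fell in LECs, a difference of −2.62, SE 0.27, adjusted p = 0.0181. The count of 27 was 1 without mutant 1, 0 without mutant 4, 5 without control 1, 0 without control 2 and 15 without mutant 2 or mutant 3 (1977–2508 at an unadjusted p under 0.05).

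**Figure D4:**
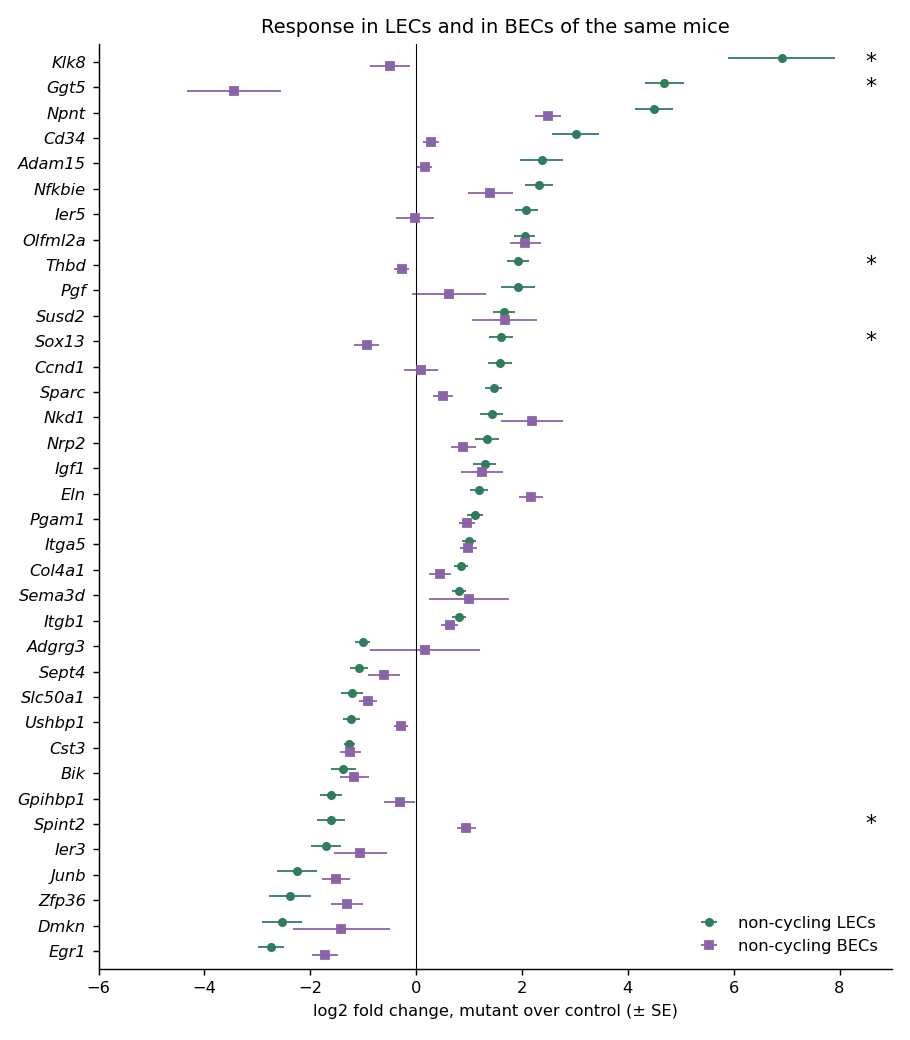
Log2 fold change (mutant over control) ± SE in non-cycling LECs and BECs of the same 5 mutant and 2 control mice, 1 line per gene for the genes of the plot of levels by mouse, with an asterisk where the difference between the cell types had adjusted p under 0.05. *Klk8*, *Thbd*, *Ggt5*, *Sox13* and *Spint2* carry asterisks, and *Npnt* (4.50 in LECs and 2.49 in BECs) does not.

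Several of the changes in LECs were measured in BECs too. *Npnt* was higher in mutant BECs (log2 fold change 2.49, SE 0.24, adjusted p = 0.00437), as were *Olfml2a* (2.06, SE 0.29, adjusted p = 0.0146), *Eln* (2.17, SE 0.23, adjusted p = 0.00538) and *Itga5* (0.99, SE 0.16, adjusted p = 0.0231), and *Egr1* (−1.73, SE 0.25, adjusted p = 0.0146), *Junb* (−1.52, SE 0.26, adjusted p = 0.0310) and *Cst3* (−1.24, SE 0.19, adjusted p = 0.0206) were lower. For none of these 7 was the difference between cell types called, with adjusted p from 0.126 for *Npnt* to 1.00 for *Itga5* and *Cst3*. *Nrp2* stood at 179–278 CPM in mutant and 149 and 99.0 CPM in control BECs (log2 fold change 0.89, SE 0.24, adjusted p = 0.102), with a difference of 0.45, SE 0.35, adjusted p = 0.739. *Gpihbp1* stood at 602–1323 and 873 and 1157 CPM in BECs (log2 fold change −0.31, SE 0.29, adjusted p = 0.603), with a difference of −1.31, SE 0.24, adjusted p = 0.127. *Ccnd1* stood at 174–363 and 157 and 312 CPM in BECs (log2 fold change 0.09, SE 0.33, adjusted p = 0.906), with a difference of 1.46, SE 0.32, adjusted p = 0.163. *Nrp2*, *Gpihbp1* and *Ccnd1* thus passed in LECs and not in BECs, and the difference itself did not pass for any of the 3.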

How the data were processed

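Smart-Seq2 libraries of single endothelial cells were read from count tables as deposited, 46609 features per plate, of which 92 are spike-ins. The authors aligned reads with TopHat2 2.1.1 to GRCm38 and the chicken PIK3CA sequence, removed duplicates with SAMtools 0.1.18 and counted reads per gene with featureCounts, which gives the raw counts deposited. The version of the annotation is not given in the sources used here. The deposited exon lengths were used in bases. Gene names and positions are those of GENCODE vM21, which holds 46005 of 46517 Ensembl genes (98.9%).

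Wells with at least 50000 non-spike-in reads, 200 genes and at most 10% mitochondrial reads were kept. Counts of the chosen cells were summed per mouse, 2 plates of a mouse together, and tested with edgeR 4.0.16 under R 4.3.3 (genes filtered by filterByExpr, TMM scaling, quasi-likelihood F test, Benjamini-Hochberg over all genes, threshold 0.05), 5 mutant against 2 control mice. The difference between LECs and BECs was an interaction fitted over the sums of both cell types. DESeq2 1.42.0 and 23 further settings were alternatives. CPM of single genes in a cell type are per 1000000 reads of a mouse's sum after TMM, and those of marker sums, ratios to a floor or of pooled reads and *Ptx3* ranges before it. No doublet caller was run. The rest was done in Python 3.11.15 with matplotlib 3.10.9, scipy 1.17.1, pandas 2.3.3 and numpy 2.4.6. Scripts were tested on simulated data.

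The members and the gene lists were chosen with earlier results of these data known. Genes were named by rule: those the study names for mutant LECs; per direction the 5 called genes of largest change and the 10 of highest mean log2 CPM with an absolute log2 fold change of at least 1; up to 3 called genes per direction in each list; and up to 5 per direction for the difference between cell types, all at 3 or more in mean log2 CPM and, in the second part, groups that do not overlap. Predicted genes and genes of the cell rule were left out. Uncalled list members, chosen after their values were seen, are examples. A few items that the rule or the lists hold are not reported here. Mice are counted once each, and p-values cover the spread between these 7 mice.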

Additional observations from a re-analysis of the deposited data

Results flagged for a closer look

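Among the 5 mutant mice, 58 named genes were examined for a mouse that stands apart by Dixon's test, which chance flags in about 1 of 20 groups, and 7 had one. In mutant 5, *Lgals3* (219 CPM), *Klk8* (286 CPM), *Olfml2a* (1051 CPM) and *Adam15* (601 CPM) lay far above the other mutants. In mutant 3, *Pik3ca* (45.1 CPM) and *Itih5* (170.5 CPM) lay above the others. In mutant 4, *Bik* (32.8 CPM) lay below them. The calls of *Klk8*, *Olfml2a*, *Adam15* and *Bik* were made with these mice included.

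The LEC and BEC responses differed by the interaction test for 5 named genes, as log2 fold change in LECs minus that in BECs (edgeR quasi-likelihood, adjusted p): *Klk8* 7.07 (0.0137), *Thbd* 2.19 (0.0424), *Ggt5* 8.30 (0.0344), *Sox13* 2.53 (0.0137) and *Spint2* −2.62 (0.0181). Both cell types came from the same mice and plates.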

How the results depend on the processing

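The counts of genes called higher and lower in non-cycling LECs were 91 and 47. All 138 genes kept their sign in every alternative in which they were tested. Since none of them overlapped between mutants and controls, this was largely set by how they were chosen. They were 1141 and 653 with DESeq2, 53 and 29 with equal cell numbers per mouse, 52 and 25 with first plates only, 387 and 159 with cycling LECs kept, 37 and 18 with cycling genes under 100 CPM, 16 and 25 with BEC markers under 100 CPM, 44 and 27 under 300 CPM (added after seeing the data), 126 and 83 without cells carrying other types' markers, 0 and 0 with *Ptx3* under 50 CPM (2114 at an unadjusted p under 0.05), 142 and 71 with *Lyve1* of at least 500 CPM, 27 and 2 with the plate series as a block, 1 and 0 with only the controls' series (1254 unadjusted), and 46 and 21 with sex as a covariate. Without a filter on low counts 28 were lower. Leaving out 1 mouse gave 3–90 higher and 0–51 lower, and the lone control is then assumed to vary like the mutants. The median log2 fold change of all genes moved to 0.14 without control 1 and to 0.14 without control 2.

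The replicate number as a block (replicate block) gave 4 higher and 0 lower (1910 of 19280 unadjusted). The numbers only name the mice: the deviations of same-numbered mice correlated at −0.03 and 0.02. For the difference between LECs and BECs, 4 larger and 23 smaller in LECs, DESeq2 gave 413 and 657 and leaving out 1 mouse 0–3 and 0–16 (1977–2508 unadjusted).

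For 83 named called genes all 1977 alternative values kept their direction, 933 of them past the threshold. Called genes had every mutant on the same side of both controls, so their direction could hardly turn in refits of the same mice. Of 408 values of uncalled genes 16 reversed and 27 passed. Over mice left out, *Pik3ca* ranged from −0.43 to 0.059, *Lgals3* from −0.55 to 0.097, *Mrc1* from −0.67 to 0.099, *Itih5* from −0.36 to 0.28 and *Lyve1* from −0.28 to 0.00046. *Lgals3* was 0.044 with cycling LECs kept, 0.21 without other types' cells, 1.06 with the series block and 1.08 in the controls' series, *Adam17* −0.26 with BEC markers under 100 CPM, and *Lyve1* 0.20 with the series block and 0.22 in the controls' series. The causes were not tested. The 2 control mice limit all tests.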

Other observations

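Other genes that rose in mutant LECs, chosen after their values were seen, work in membrane traffic, protein turnover and the cytoskeleton. *Cltc*, the clathrin heavy chain, stood at 282, 303, 262, 314 and 260.0 CPM in mutants 1–5 and at 129 and 133 CPM in the controls (log2 fold change 1.12, SE 0.14, adjusted p = 0.0270, edgeR quasi-likelihood). *Vcp*, an ATPase that extracts ubiquitinated proteins, stood at 376, 411, 459, 432 and 387 against 234 and 227 CPM (log2 fold change 0.84, SE 0.13, adjusted p = 0.0407), and *Atp6v1a*, the catalytic subunit of the proton pump of lysosomes, at 235, 185, 252, 232 and 205 against 115 and 105 CPM (log2 fold change 1.01, SE 0.17, adjusted p = 0.0439). Mutants and controls were apart in all 3 genes.

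Of actin-binding proteins outside the list, *Lasp1* stood at 579, 651, 617, 559 and 604 against 306 and 312 CPM (log2 fold change 0.96, SE 0.12, adjusted p = 0.0225) and *Cotl1* at 259, 263, 241, 264 and 249.5 against 87.0 and 124 CPM (log2 fold change 1.28, SE 0.17, adjusted p = 0.0288). *Aldh1a3*, an enzyme that makes retinoic acid, stood at 46.7, 37.1, 54.9, 35.2 and 70.1 against 3.31 and 7.98 CPM (log2 fold change 3.11, SE 0.47, adjusted p = 0.0379). *Hdgf*, a heparin-binding growth factor, stood at 147, 162, 152, 158 and 138 against 74.0 and 77.2 CPM (log2 fold change 1.00, SE 0.14, adjusted p = 0.0363). For none of *Cltc*, *Vcp*, *Atp6v1a*, *Lasp1*, *Cotl1*, *Aldh1a3* and *Hdgf* was the difference between the LEC and the BEC response called, with adjusted p from 0.209 for *Lasp1* to 0.997 for *Cotl1*.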
